A study of Mus musculus with 71 samples.

Results

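Expression of the genes of the H3K9 methylation and HP1 system was examined in mouse embryonic stem cells (mESCs), either wild-type or lacking 3 genes for linker histone H1. The 9 genes were taken as a list of names: the H3K9 methyltransferase genes Ehmt1, Ehmt2, Suv39h1, Suv39h2 and Setdb1, the HP1 genes Cbx1, Cbx3 and Cbx5, and the corepressor gene Trim28. They had 21 of the 34010 RefSeq accessions in the deposited tables. Cbx1, Cbx3 and Trim28 had 1 accession each and were measured. Ehmt1, Ehmt2, Suv39h1, Suv39h2, Setdb1 and Cbx5 had several accessions and are given as not measured. Of the 3 measured genes, 0 passed an adjusted p of 0.05 between the genotypes in limma, against 20.5% of all accessions tested, and 0 passed in edgeR and DESeq2. Cbx1 alone had an unadjusted limma p under 0.05, as did 37.7% of all accessions tested, and its unadjusted p was 0.0352 in edgeR and 0.0759 in DESeq2.

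Methylation of lysine 9 of histone H3 marks heterochromatin and silenced repeats and genes. EHMT1 (GLP) and EHMT2 (G9a) act as a heterodimer and place the mono- and dimethyl marks in euchromatin, SUV39H1 and SUV39H2 place the trimethyl mark at pericentromeric repeats, and SETDB1 is recruited by TRIM28 (KAP1) through zinc finger proteins to silence endogenous retroviruses in mESCs. The HP1 proteins, HP1β from Cbx1, HP1γ from Cbx3 and HP1α from Cbx5, bind the methylated lysine with their chromodomain.

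Poly(A) RNA of R1 mESCs was sequenced in 2 libraries of wild-type (WT) cells and 2 of H1c/d/e triple knockout (H1-TKO) cells. All cells were grown on gelatin with LIF, and the knockout was made with CRISPR/Cas9 and a guide shared by the 3 genes, followed by picking of single-cell clones. The study describes independent duplicates without saying whether they came from separate clones, so p-values measure the spread between these libraries and 1 clone may stand for the knockout. H3K27me3 peak lists were also deposited for both genotypes, 1 list each.

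The genotype labels of the 4 RNA-seq samples are the reverse of the names inside the tables. The genotype in the table names was used. Each library equalled 1 column in the source data of the study in all 1999 rows that could be read (100%, within a relative tolerance of 0.001). The genotypes of those columns were taken from their order, with WT before H1-TKO. Under the sample labels every RNA-seq direction below would be reversed. The growth label of these samples describes another cell line, but the tables held mouse stem cell transcripts. Pou5f1, which encodes OCT4, had 2586 to 5110 normalized counts on its main accession, and Sox2 and Zfp42 had 3958 to 9654 and 6015 to 8991. Pou5f1, Nanog and Esrrb had several accessions, with Nanog listed at 0. The targeted genes were low in this poly(A) RNA. H1d had 3.88 and 41.4 normalized counts in WT against 1.10 and 0 in H1-TKO, and H1e had 5.43 and 19.6 against 0 and 2.11. H1c had 11.6 and 56.7 against 18.7 and 7.37, so that its genotypes overlapped. The reads assigned to accessions, as recovered from the normalized counts, were 10538507 and 8292007 in WT and 6951619 and 7346122 in H1-TKO. The sequencing depth, which also holds reads that were not assigned, was higher. Summed normalized counts of 8 pluripotency markers were 23633 and 33058 in WT and 40132 and 40849 in H1-TKO. Of the 5 with 1 accession, Sox2, Klf4 and Dppa5a were called higher, Tdgf1 lower and Zfp42 was not called. Those of 9 differentiated cell markers were 3816 and 917 in WT against 474 and 593 in H1-TKO, where WT replicate 1 stood highest through Krt8 and Krt18. Krt8 was called lower (log2 fold change -2.88, limma adjusted p = 0.0211). Those of 6 fibroblast markers were 481 to 582 in WT and 515 to 585 in H1-TKO, with Col1a1 and Acta2 called lower and Thy1 higher. Their part in the results below was not tested. Of the 11113 accessions with a mean of at least 10 normalized counts, 2282 passed the adjusted p threshold in limma, or 20.5%, with 1094 higher (9.84%) and 1188 lower (10.7%) in H1-TKO mESCs.

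Cbx3, the gene of HP1γ, has copies elsewhere in the mouse genome, which bears on how its reads can be counted. It lies on chromosome 6 from 51420359 to 51433703 on the plus strand (NCBIM37). Its coding sequence of 552 bases had 19 copies elsewhere in the genome that spanned at least 90% of it. The closest lay on chromosome 14 from 74354807 to 74355358 with 99.8% identity and on chromosome 1 from 58703532 to 58704083 with 99.6% identity. GENCODE M1 annotates them as exons of Gm6984 and Gm10068, and neither was matched to an accession in the tables. The copies differed from Cbx3 by A390G on chromosome 14, and by A390G and C399T on chromosome 1, counted from the first base of the start codon. Coding bases 380 to 409 are shown because they hold all of these differences. The capitals mark the positions that differ, and the places are chr6:51431772-51431801 on the plus strand, chr14:74354950-74354979 on the minus strand and chr1:58703911-58703940 on the plus strand.
Cbx3: tcggcgccacAgacagcagCggagagttaa
copy on chromosome 14: tcggcgccacGgacagcagCggagagttaa
copy on chromosome 1: tcggcgccacGgacagcagTggagagttaa

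The RNA-seq reads were 150 bases long in pairs. Of the 403 windows of 150 bases in the Cbx3 coding sequence, 253 (62.8%) occurred unchanged elsewhere in the genome. The longest unbroken identical run outside the gene was 389 bases. The authors kept uniquely mapped reads, and a single read that fills such a window matches more than 1 place, while its mate may not. The exons outside the coding sequence, which make up the rest of the 3229 exon bases of Cbx3, were not searched. The level of Cbx3 is uncertain, and how many of its reads were left out was not tested. For Cbx1 the share was 0 of 409 windows and for Trim28 0 of 2356 windows. Cbx1 had 1 copy over its coding length, on chromosome 8, with 92.7% identity. Among the genes that were not measured, Setdb1 had 17 of 3778 windows (0.450%) elsewhere, and Ehmt1, Ehmt2, Suv39h1, Suv39h2 and Cbx5 had none.

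**Figure D1:**
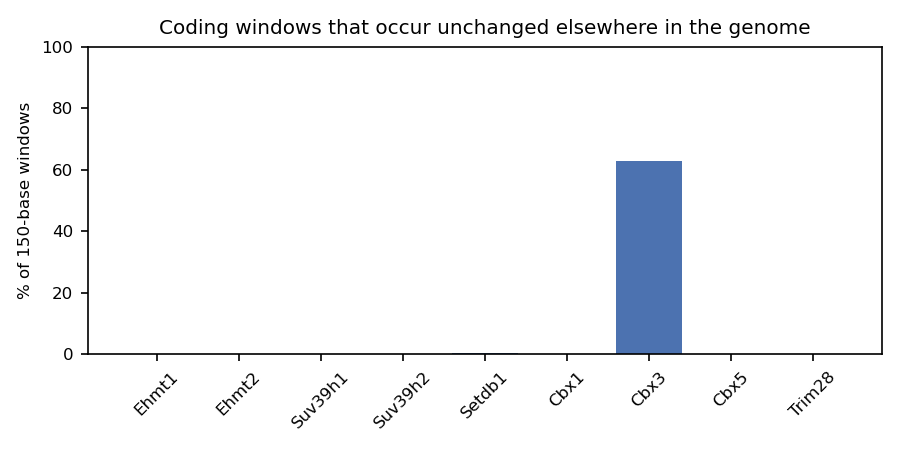
The bars give, for each of the 9 genes, the percentage of 150-base windows of the coding sequence that occur unchanged elsewhere in NCBIM37. Cbx3 stands at 62.8%, Setdb1 at 0.450% and the other 7 genes at 0.

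Trim28 (NM_011588), on chromosome 7 from 13609501 to 13616384, was the most abundant of the measured genes. The normalized count was 25599 and 33781 in WT against 28652 and 28858 in H1-TKO. Both H1-TKO libraries lay between the WT libraries. The log2 fold change of H1-TKO against WT was -0.03 ± 0.15 (SE, n = 2 libraries each), with a 95% interval of -0.38 to 0.31 and an adjusted p of 0.893 in limma. On a linear scale the interval ran from 0.770 to 1.24 times the WT level. In these bulk samples, fewer cells of a type and less RNA per cell cannot be told apart. The WT libraries decided the direction. Without WT replicate 1 the log2 fold change was -0.23 (limma adjusted p = 3.2e-06), and without WT replicate 2 it was 0.17 (limma adjusted p = 0.00195), each with the lone WT library assumed to vary like the H1-TKO libraries. In these fits 49.2% and 44.5% of all accessions were called.

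Cbx1 (NM_007622) lies on chromosome 11 from 96650441 to 96669954. The pseudogene Gm11517 lies within it on the other strand and shares 0 bases of exon with it. Its normalized count was 3483 and 3709 in WT against 2905 and 2871 in H1-TKO. Both H1-TKO libraries were below both WT libraries, as in 34.2% of all accessions tested, and in 66.4% the genotypes did not overlap in one direction or the other. The log2 fold change was -0.32 ± 0.11 (SE, n = 2 libraries each), which is 0.804 times the WT level (95% interval 0.668 to 0.967). The unadjusted p was 0.0266 and the limma adjusted p 0.0886, so Cbx1 did not pass. Cbx1 passed the limma threshold when either WT library was left out, with a log2 fold change of -0.36 without WT replicate 1 (limma adjusted p = 1.3e-05) and -0.27 without WT replicate 2 (limma adjusted p = 0.00175), where 49.2% and 44.5% of all accessions passed. Without H1-TKO replicate 1 or 2 the limma adjusted p was 0.527 and 0.559.

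Cbx1 was set against the other genes of its chromosome. The median log2 fold change of the 909 accessions tested there was -0.37, against -0.03 over all 11113, and 20.8% of them were called lower and 5.28% higher, against 10.7% and 9.84% of all accessions. The WT libraries also differed on this chromosome, by a median of -0.31 (log2, replicate 1 minus replicate 2), while the H1-TKO libraries differed by 0.00. Cbx1 itself was lower in WT replicate 1 than in WT replicate 2, at 3483 against 3709 normalized counts, a smaller difference than that median. It lay close to the middle of its chromosome, with 53.1% of the chromosome 11 accessions below it, and its log2 fold change relative to the chromosome median was 0.06. A change of Cbx1 and the shift of its chromosome cannot be told apart here.

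**Figure D2:**
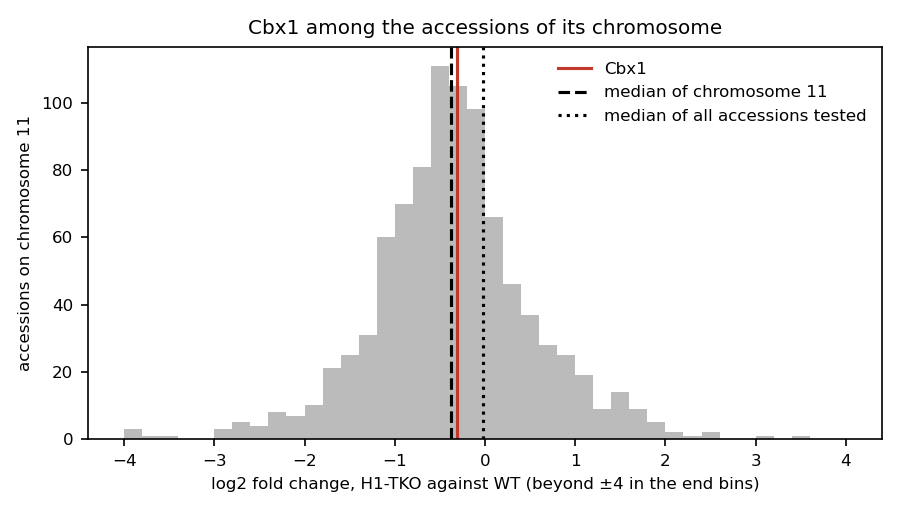
The histogram shows the log2 fold change of H1-TKO against WT for the 909 accessions tested on chromosome 11, as accessions per bin. Cbx1 (solid line, -0.32) lies beside the chromosome median (dashed line, -0.37) and below the median of all accessions tested (dotted line, -0.03).

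Cbx3 (NM_007624) reached a normalized count of 69.0 and 67.6 in WT against 102 and 64.2 in H1-TKO, from 61 to 93 reads a library. H1-TKO replicate 1 was the highest and H1-TKO replicate 2 the lowest of the 4, so the genotypes overlapped. The log2 fold change was 0.24 ± 0.35 (SE, n = 2 libraries each), with a 95% interval of -0.57 to 1.06 and a limma adjusted p of 0.640. It rested on H1-TKO replicate 1, without which it was -0.09. On a linear scale the interval ran from 0.674 to 2.08 times the WT level, so a lower and a higher level are both compatible with these libraries.

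**Figure D3:**
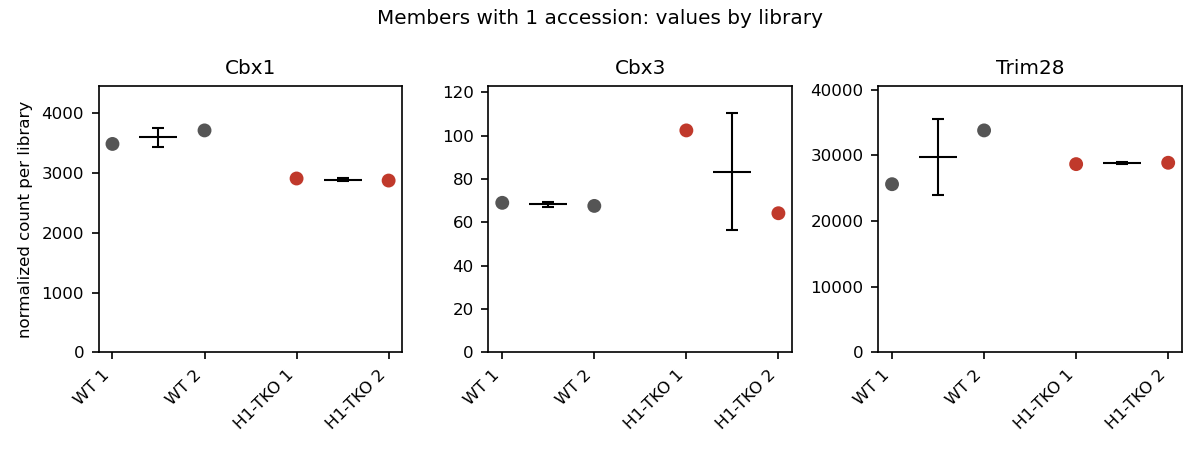
Each panel gives the normalized count of 1 gene in the 4 libraries, on a linear axis from 0, with WT libraries in grey and H1-TKO libraries in red. Bars give the mean ± SD of 2 libraries. Cbx1 lies at 3483 and 3709 in WT against 2905 and 2871 in H1-TKO, while the genotypes overlap for Cbx3 and Trim28.

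Levels of the measured genes were compared per kb of exon (union of the GENCODE M1 exons). Trim28 had 6330 to 8353 normalized counts per kb over the 4 libraries, Cbx1 had 672 to 868 and Cbx3 had 19.9 to 31.7. The order was the same in each library and the ranges did not overlap. Trim28 was 7.77 to 10.6 times Cbx1, and Cbx1 was 21.4 to 41.4 times Cbx3, a ratio that is as uncertain as the level of Cbx3.

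The remaining 6 genes, all of the methyltransferases among them, had 18 accessions, of which 13 had 0 reads in all 4 libraries. Ehmt1 and Ehmt2 had 4 accessions each and Setdb1 had 3, and none of these held a read. Among protein-coding genes with several accessions, 32.3% of 4885 had 0 reads in all 4 libraries, against 15.0% of 15562 with 1 accession, and the median was 5 against 155 reads over the 4 libraries. The zeros of Ehmt1, Ehmt2 and Setdb1 were not read as a lack of expression, and how the counting treated reads shared between accessions was not tested.

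Suv39h1 held reads on both of its accessions. NM_011514 had 15 and 21 reads in WT and 5 and 4 in H1-TKO, or 11.6 and 22.9 against 5.51 and 4.21 normalized counts, and NM_001290716 had 3 and 5 against 2 and 0 reads. On NM_011514 both H1-TKO libraries were below both WT libraries, as in 34.2% of all accessions tested. On NM_001290716 the nearest libraries of the 2 genotypes had 3 and 2 reads. NM_011514 was the only accession of these 6 genes that passed the filter on low values, which it did through the WT libraries, and it was not called (limma adjusted p = 0.156). The gene lies on chromosome X from 7638297 to 7651886, where exons of Gm14820 on the other strand share 596 bases with its own. Exons of Dclre1c and Gm13184 likewise share 357 and 83 bases with those of Suv39h2, and exons of Lass2 share 64 bases with those of Setdb1. The counting is not stated to use strand.

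Suv39h2 had 5 and 8 reads in WT against 6 and 4 in H1-TKO on NM_022724 and none on NR_027509. The genotypes overlapped. Cbx5 had 16 and 4 against 1 and 2 reads on NM_001076789, 1 and 1 against 0 and 0 on NM_001110216 and none on NM_007626. Most of its reads were those of WT replicate 1. Over all libraries Cbx5 had 25 reads, Suv39h2 had 23 and Suv39h1 had 55.

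**Figure D4:**
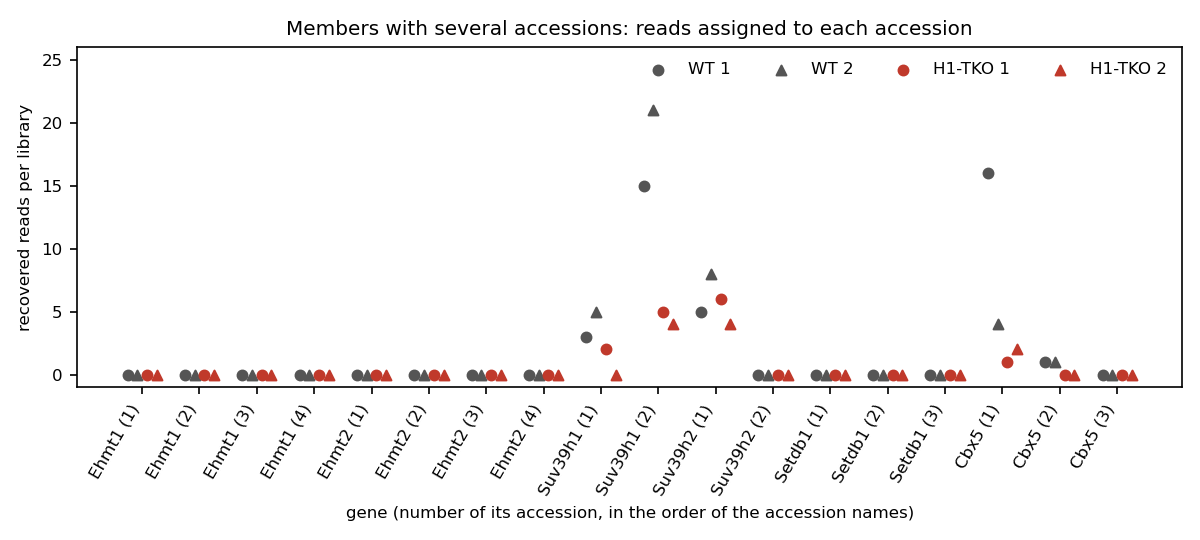
Each position on the x axis is 1 accession of a gene that has several, and the points give the reads recovered for it in each library (WT grey, H1-TKO red, replicate 1 as circles and replicate 2 as triangles). Suv39h1, Suv39h2 and Cbx5 reach 21, 8 and 16 reads, and all accessions of Ehmt1, Ehmt2 and Setdb1 stay at 0.

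Other genes of the pathway were taken from 5 lists with 57 genes, of which 25 had 1 accession and passed the filter. Of these, 4 were called higher and 1 lower in H1-TKO mESCs, against 9.84% and 10.7% of all accessions. With 1 library left out, the counts were 6 higher and 5 lower without WT replicate 1 (24.1% and 25.1% of all accessions) and 7 and 6 without WT replicate 2 (21.5% and 23.1%). They were 3 and 1 without H1-TKO replicate 1 (1.85% and 3.57%) and 1 and 0 without H1-TKO replicate 2 (1.79% and 3.47%). None of the 4 other H3K9 methyltransferase genes, Setdb2, Prdm2, Mecom and Prdm16, could be tested. The first had no accession here and the other 3 had several.

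Among 11 partners of the methyltransferases and of TRIM28, 3 were tested and 1 was called, with a median log2 fold change of 0.12. Mphosph8 encodes MPP8, a chromodomain protein of the HUSH complex that binds methylated H3K9 and works with SETDB1. Its normalized count was 2067 and 1860 in WT against 3878 and 3778 in H1-TKO. The log2 fold change was 0.96 ± 0.12 (SE, n = 2 libraries each; limma adjusted p = 0.00446), and it ran from 0.89 to 1.04 with 1 library left out. Atf7ip, a cofactor of SETDB1, had a log2 fold change of 0.12 ± 0.16 (SE) and Zfp644, a G9a partner, of -0.16 ± 0.14 (SE), and neither was called, although Atf7ip was called higher without WT replicate 2.

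Of 11 H3K9 demethylase genes 5 were tested and 1 was called, with a median log2 fold change of -0.12. Phf2, which encodes a JmjC domain demethylase, reached 221 and 141 normalized counts in WT against 65.0 and 47.4 in H1-TKO. It fell by 1.65 ± 0.34 on the log2 scale (SE, n = 2 libraries each; limma adjusted p = 0.0177), and the call was lost without H1-TKO replicate 2 (limma adjusted p = 0.0999). Kdm1a, Kdm3b, Kdm4b and Kdm7a were not called, with log2 fold changes from -0.35 to 0.41. Without WT replicate 1, Kdm7a was called higher and Kdm4b lower, and without WT replicate 2, Kdm1a was called lower.

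Of 16 partners of HP1 and heterochromatin 9 were tested and 2 were called higher, with a median of -0.10. Lbr, the lamin B receptor, an inner nuclear membrane protein that binds HP1, reached 2943 and 2429 normalized counts in WT against 4933 and 5270 in H1-TKO. Its log2 fold change was 0.93 ± 0.13 (SE, n = 2 libraries each; limma adjusted p = 0.00644). Lbr lies on chromosome 1, where the median of 611 accessions was 0.50, and relative to that median its log2 fold change was 0.43. On this chromosome, which also holds Mael, 30.1% of accessions were called higher and 4.26% lower. Sgo1, a protector of centromeric cohesion, had 984 and 889 against 1415 and 1480 normalized counts, with a log2 fold change of 0.63 ± 0.14 (SE, n = 2 libraries each; limma adjusted p = 0.0203). Without H1-TKO replicate 1 or 2, Sgo1 was not called (limma adjusted p = 0.198 and 0.248), and Lbr was not called without H1-TKO replicate 2 (limma adjusted p = 0.0627). Chd4, the remodeller of the NuRD complex, just missed the threshold, with 14785 and 12186 against 10039 and 9837 normalized counts and a log2 fold change of -0.43 ± 0.13 (SE; limma adjusted p = 0.05001). It was called with a pseudocount of 0.5 and without WT replicate 1 or 2. Adnp, Atrx and Smchd1 were called lower without WT replicate 2.

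The last list held 15 genes kept silent by H3K9 methyltransferases in ES cells, of germ cell and of early embryo type. Of these, 8 were tested and 1 was called. The median log2 fold change was 0.42, between Zscan4c at 0.03 and Taf7l at 0.80, and no gene lay near it. Tex101 rested on 5 to 25 reads a library. Mael, a germline gene of transposon silencing, reached 144 and 202 normalized counts in WT against 375 and 454 in H1-TKO. Its log2 fold change was 1.27 ± 0.24 (SE, n = 2 libraries each; limma adjusted p = 0.0137), and 0.77 relative to the median of chromosome 1, where it lies. The call was lost without H1-TKO replicate 2 (limma adjusted p = 0.119). Taf7l, Slc25a31, Tex101, Stk31, Zscan4c, Zscan4d and Zscan4f were not called, with log2 fold changes from -0.58 to 1.16. Without WT replicate 1, Zscan4d was called higher and Slc25a31 and Stk31 lower, and without WT replicate 2, Zscan4d and Tex101 were called higher. The Zscan4 genes belong to a multigene family, and whether they share reads was not tested.

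**Figure D5:**
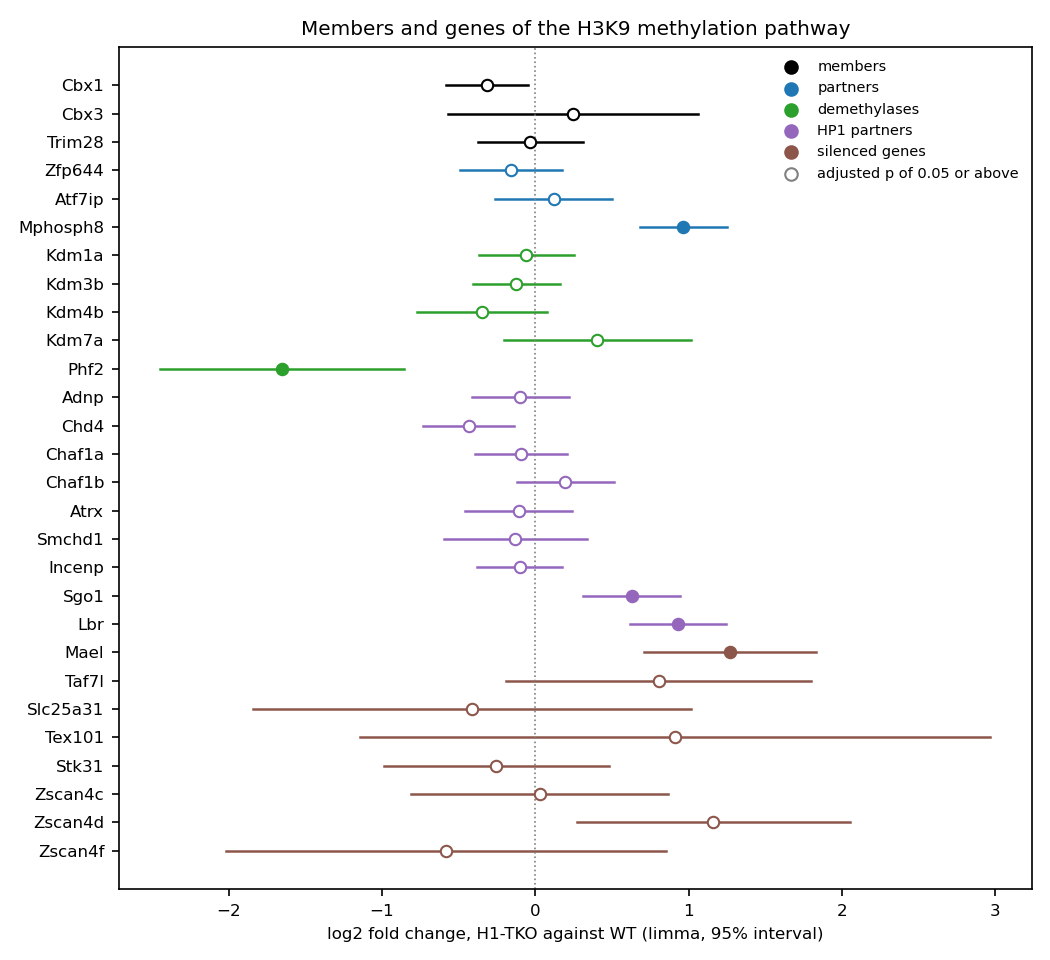
Points give the log2 fold change of H1-TKO against WT and lines its 95% interval in limma, for the 3 measured members (black) and 25 genes of the pathway, coloured by list. Filled points passed the adjusted p threshold, namely Mphosph8 (0.96), Sgo1 (0.63), Lbr (0.93) and Mael (1.27) to the right of 0 and Phf2 (-1.65) to the left.

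H3K27me3, the mark of Polycomb silencing, was listed at 1 of the 9 genes. The WT list held 6957 and the H1-TKO list 6262 peaks, each with a score that rises as the MACS p-value falls. The lowest score was 50.01 in the WT list. Only Ehmt1 had a peak within 2 kb of its body, as did 16.9% of the 22380 protein-coding genes of GENCODE M1 in the WT list and 15.5% in the H1-TKO list. In WT the peak lay from 24766980 to 24767139 on chromosome 2 (NCBIM37) with a score of 56.1. In H1-TKO a peak that does not overlap it lay from 24766713 to 24766936 with a score of 55.1. Both lay in an intron and had scores close to the lowest score of the WT list. For the other 8 genes the nearest WT peak lay from 9.62 kb (Cbx5) to 742 kb (Suv39h1) away, and the nearest H1-TKO peak from 21.5 kb (Cbx5) to 4018 kb (Suv39h1). The distances in WT and H1-TKO were 36.8 and 36.7 kb for Cbx3, 42.5 and 42.9 kb for Ehmt2, 41.9 and 51.7 kb for Cbx1. They were 54392 and 72001 bases for Setdb1. The distances were 12.7 and 3030 kb for Trim28 and 37.3 and 753 kb for Suv39h2. The lists have no replicates.

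The promoters of all 9 genes, 13 entries of 250 bases before to 50 bases after a start in RefSeq (GRCm38.p6), each held more CpG than the median promoter. They had 8 to 40 CpG dinucleotides, against a median of 7 over 32851 promoters. Cbx1 had 22, Trim28 had 23 and the 2 starts of Cbx3 had 34 and 32. None of the 13 held the letters TATAAA on either strand, which 13.6% of all promoters did.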

How the data were processed

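Per the labels and the study's methods, the authors aligned paired-end RNA-seq reads to mm9 gene models (Subread), retained reads that mapped uniquely, counted per accession (featureCounts) and normalized with DESeq2. The deposited signal is this normalized count per RefSeq accession. All values above 0 (100%) were whole multiples of what 1 read was worth in the library, within 0.01 reads, so reads were recovered. The H3K27me3 peaks were called by the authors with MACS, and the deposited score of a peak is a multiple of the negative log10 of its p-value.

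Symbols were taken from RefSeq (GRCm38.p6, names alone) for 33650 of 34010 accessions, and places from GENCODE M1 (NCBIM37, the same build as mm9). A gene with 1 accession was taken as measured. limma 3.58.1 (R 4.3.3, eBayes with a trend, no block) was run on log2(normalized count + 1) of accessions with a mean of at least 10, with Benjamini-Hochberg adjustment over all 11113 and a threshold of 0.05. With the pseudocount, fold changes of weakly expressed genes are understated. The step was tested on simulated data. edgeR 4.0.16 and DESeq2 1.42.0 on recovered reads, other pseudocounts, filters and scalings, a replicate block and each library left out were alternatives. Coding sequences (GENCODE M1, first transcript), without the untranslated exons, were searched in NCBIM37 with blastn 2.17.0. Python 3.11.15 and pandas 2.3.3 were used.

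The members and the gene lists were chosen with earlier results of these data known. The genes named are the members with every accession, and each gene of the other lists that was called. Others were named after their values were seen, as genes that did not pass.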

Additional observations from a re-analysis of the deposited data

How the results depend on the processing

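No member was called in the main limma test, and 1 (Cbx1) had an unadjusted limma p under 0.05, as did 37.7% of all accessions. The unadjusted p of Cbx1 was 0.0352 in edgeR, 0.0759 in DESeq2 and 0.0619 in limma with quantile normalization. The count of members called stayed at 0 with other pseudocounts (0.5 and 4), no filter on low values, a minimum mean of 50, edgeR and DESeq2 on recovered reads, quantile normalization and the replicate block. Leaving out 1 library gave 0 to 2 members called, and log2 fold changes of -0.36 to -0.27 for Cbx1, -0.088 to 0.58 for Cbx3 and -0.23 to 0.17 for Trim28. Trim28 turned higher at 0.17 without WT replicate 2 and Cbx3 turned lower at -0.088 without H1-TKO replicate 1. Relative to the chromosome median Cbx1 was at 0.059 and Trim28 at 0.040. Over the other alternatives the limma, edgeR or DESeq2 adjusted p was 0.0789 to 0.199 for Cbx1. With a pseudocount of 0.5 Chd4 was added to the pathway genes called (4 higher and 2 lower). Over all accessions 2282 were called (1094 higher and 1188 lower), against 1321 (624 and 697) without the filter on low values, where more accessions were tested, 2163 by edgeR and 2431 by DESeq2 on recovered reads. Leaving out 1 library gave 585 to 5468 calls, 199 to 2682 higher and 386 to 2786 lower. A genotype left with 1 library was assumed to vary like the other, and the cause of these changes was not tested.

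With the replicate block 3299 accessions were called, 1521 higher and 1778 lower, and the unadjusted and adjusted p of Cbx1 were 0.0609 and 0.146. The deviations of same-numbered libraries from their genotype means had a correlation of 0.01 across 11113 accessions, and no source pairs the numbers. Among the 25 genes of the pathway tested, 5 were then called higher and 2 lower, with Chd4 and Zscan4d added. Cbx3, Suv39h1, Suv39h2 and Cbx5 had 23 to 305 reads over 4 libraries, and why these counts were low was not tested.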
